A study of Homo sapiens with 4 samples.

Results

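The genes described here respond to low oxygen and lie outside glycolysis. They are 35 genes taken by symbol from a list of known hypoxia-responsive genes, among them CA9, DDIT4, KDM3A, PLOD2, LOX and TXNIP. All 35 were found among the 20804 genes of the deposited table. RNA was sequenced in 4 libraries of MDA-MB-231, an established human line of triple-negative breast cancer with mesenchymal traits. There were 2 libraries of cells labelled miR-3662-KO (KO) and 2 of cells labelled WT. Both groups are the same line with no treatment named. By its title the study used CRISPR interference and activation, and its design text describes cells sorted for the activity of the microRNA, so how the KO cells were made is not settled by the labels. Nor do the labels state oxygen, medium or density, or whether the libraries were separate cultures or clones, so the p-values rest on a spread between samples that could be technical.

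Cells sense oxygen with prolyl hydroxylases that use oxygen and 2-oxoglutarate. In normal oxygen these enzymes mark the alpha subunit of HIF, the hypoxia-inducible transcription factor, and VHL then directs it to destruction. In low oxygen the alpha subunit persists, pairs with ARNT and binds DNA at hypoxia response elements, whose core is ACGTG or GCGTG. This control acts on protein, which was not measured here. Outside glycolysis the induced genes buffer pH, modify and cross-link collagen, restrain mTORC1, store glycogen and lipid, and repress transcription. Several members (P4HA1, P4HA2, PLOD1, PLOD2, KDM3A, JMJD6) are themselves oxygen-dependent dioxygenases, and in breast cancer LOX and the collagen hydroxylases are known for matrix stiffening.

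The microRNA named in the labels is hsa-miR-3662 (RefSeq, GRCh38.p14, chr6:134979355-134979378, minus strand), shown because it is the feature that separates the groups, with the seed (bases 2 to 8) in capitals.
hsa-miR-3662: gAAAAUGAugaguagugacugaug
Libraries of this kind miss RNAs so short, and the table has no row for it, so its loss could not be checked here. A match to the seed (TCATTTT) stood in the longest annotated 3′ UTR of 17 of 35 members (48.6%), against 3560 of 10622 tested genes (33.5%). Median UTR lengths of these members and tested genes were 1416 and 1379 bases. Of the 18 members that were higher in KO 8 had a match, and of the other 17 members 9 had one. Median UTR lengths of these 2 sets were 2195 and 1172 bases. The members not higher in KO include JMJD6, which fell, and CA9, PPP1R3C and CXCR4, which were not tested. Most matches stood in RORA (7) and LOX (5), which rose, and in AK4 (4), which was not called, in UTRs of 9171, 3548 and 5968 bases. As examples with 1 match each, ARRDC3, PLOD2, GBE1 and FAM162A, which rose, and JMJD6, which fell, are shown. The match is in capitals within its surroundings (GENCODE 29 transcripts).
ARRDC3: ttattgttgaaTCATTTTgtga
PLOD2: ggtgccaaaatTCATTTTctaa
GBE1: tcatccgtgtcTCATTTTgtgt
FAM162A: cacaggcgaacTCATTTTgagg
JMJD6: aaacttgttcaTCATTTTaaat
A match is a description of the sequence and not evidence of regulation.

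The promoters of 3 related pairs in which 1 member was called and the other was not, and of CA9, are shown with each ACGTG or GCGTG, on either strand, in capitals. Each runs from 250 bases before to 50 bases after 1 RefSeq start per gene (GRCh38.p14), and other starts of a gene were not searched. The windows are PLOD2 (chr3:146161135-146161434, minus strand), PLOD1 (chr1:11934467-11934766, plus), P4HA1 (chr10:73096817-73097116, minus), P4HA2 (chr5:132227042-132227341, minus), ARRDC3 (chr5:91383268-91383567, minus), TXNIP (chr1:145996530-145996829, minus) and CA9 (chr9:35673678-35673977, plus).
PLOD2: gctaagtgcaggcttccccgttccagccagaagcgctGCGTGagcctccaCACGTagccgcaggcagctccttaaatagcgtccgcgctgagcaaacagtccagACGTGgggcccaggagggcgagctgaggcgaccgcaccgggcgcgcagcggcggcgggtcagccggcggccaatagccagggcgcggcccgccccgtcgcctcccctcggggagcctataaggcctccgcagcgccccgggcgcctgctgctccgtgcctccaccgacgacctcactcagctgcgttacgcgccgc
PLOD1: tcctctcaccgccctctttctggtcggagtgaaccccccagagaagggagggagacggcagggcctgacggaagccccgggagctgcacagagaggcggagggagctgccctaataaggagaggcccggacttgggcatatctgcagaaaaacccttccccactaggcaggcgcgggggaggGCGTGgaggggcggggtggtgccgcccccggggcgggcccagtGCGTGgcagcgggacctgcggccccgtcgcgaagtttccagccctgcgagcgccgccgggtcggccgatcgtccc
P4HA1: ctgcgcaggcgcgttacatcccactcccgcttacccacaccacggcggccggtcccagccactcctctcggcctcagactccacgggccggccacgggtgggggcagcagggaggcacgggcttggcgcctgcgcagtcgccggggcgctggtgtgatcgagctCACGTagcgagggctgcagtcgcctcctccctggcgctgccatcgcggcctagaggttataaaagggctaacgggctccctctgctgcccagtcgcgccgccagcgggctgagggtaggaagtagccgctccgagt
P4HA2: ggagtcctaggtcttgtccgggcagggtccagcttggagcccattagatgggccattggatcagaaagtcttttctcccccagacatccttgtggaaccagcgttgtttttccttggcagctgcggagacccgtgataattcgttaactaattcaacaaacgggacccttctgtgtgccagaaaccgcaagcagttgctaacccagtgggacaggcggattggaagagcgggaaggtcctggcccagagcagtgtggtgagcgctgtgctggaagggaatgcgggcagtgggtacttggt
ARRDC3: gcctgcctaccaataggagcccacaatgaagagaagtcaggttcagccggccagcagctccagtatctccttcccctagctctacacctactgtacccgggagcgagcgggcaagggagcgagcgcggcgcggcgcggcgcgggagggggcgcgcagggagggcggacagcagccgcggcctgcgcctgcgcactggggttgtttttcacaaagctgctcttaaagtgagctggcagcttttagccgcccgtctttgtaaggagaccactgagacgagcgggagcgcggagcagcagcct
TXNIP: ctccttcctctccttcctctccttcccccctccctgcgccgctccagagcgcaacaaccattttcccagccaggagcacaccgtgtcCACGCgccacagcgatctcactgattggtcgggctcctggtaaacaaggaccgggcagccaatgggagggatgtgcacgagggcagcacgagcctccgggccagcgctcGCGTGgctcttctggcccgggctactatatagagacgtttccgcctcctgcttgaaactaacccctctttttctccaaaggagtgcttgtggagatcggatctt
CA9: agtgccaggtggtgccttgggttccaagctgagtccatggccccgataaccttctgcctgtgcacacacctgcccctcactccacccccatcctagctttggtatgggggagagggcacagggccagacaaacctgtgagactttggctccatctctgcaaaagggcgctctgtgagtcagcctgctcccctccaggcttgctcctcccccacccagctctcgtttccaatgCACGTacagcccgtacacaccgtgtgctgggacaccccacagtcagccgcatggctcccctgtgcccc
At least 1 core stood in 23 of the 29 members with a RefSeq promoter (79.3%), against 6082 of 9400 promoters of tested genes (64.7%) and 48.4% of all 27305 promoters of this length. The form ACGTG stood in 12 of 16 promoters of members that rose in KO (75%) and in 4 of 13 of the other members (30.8%), against 27.8% of promoters of tested genes. GCGTG stood in 8 of 16 and 6 of 13, against 52.2%. The E-box CACGTG, the site of the repressors BHLHE40 and BHLHE41, contains ACGTG on both strands, so each E-box also counts as ACGTG. It stood in 9 of 29 members (31%), against 10.5% of tested genes, with 6 of 16 that rose and 3 of 13 others. The others include CA9, PPP1R3C and CXCR4, which were not tested. No promoter sequence was at hand for JMJD6, the only member called lower, for SPAG4 and STC1, which rose, or for HILPDA, LOXL2 and ZNF395. Of those that rose, BHLHE41, RORA and PPFIA4 reached the filter only through KO. In the windows printed, PLOD2 has 3 cores and PLOD1 2, and P4HA1 has 1 and P4HA2 none. The P4HA2 window lies inside its gene (132191838 to 132295315), away from the outer start, which was not searched. The same holds for PLOD2 (gene from 146069440 to 146163653) and PLOD1 (gene from 11934205 to 11975538). Other counted windows, among them those of RORA, FAM13A and YEATS2, also lie inside the gene. TXNIP has 2 cores and ARRDC3 none. ARRDC3, the member with the largest rise, thus has no core in this window. A core is a description of the sequence and not evidence of regulation.

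Levels are in FPKM (fragments per length of transcript and per depth of the library), as deposited, so levels of different genes can be set side by side. FPKM sums were 528986 and 544650 in KO and 504102 and 520527 in WT, and the number of reads behind a value is unknown. Genes that reached 1 FPKM in 2 or more libraries were tested with limma on log2(FPKM + 1), and called at a Benjamini-Hochberg adjusted p under 0.05 over all 11786 tested genes. An exact permutation test of 2 against 2 libraries cannot go below 0.333, so single values have no other test. Markers of the line were high, with VIM between 1119.82 and 1320.76 FPKM in all libraries, and ESR1 was at or below 0.01 FPKM. ERBB2 was at 11.4 and 8.55 FPKM in KO and 8.59 and 10.5 FPKM in WT. Markers of other cells were near the floor: summed over the leukocyte list they reached 0.26 to 0.31 FPKM in KO and 0.18 to 0.33 FPKM in WT, over the endothelial list 0.27 to 0.49 and 0.12 to 0.17, and over the fibroblast list 0.03 to 0.08 and 0.04 to 0.11, with PTPRC, CD3E and COL1A2 listed at 0 throughout. The luminal epithelial list, which this line partly expresses, summed to 50.3 to 63.5 FPKM in KO and 35.9 to 50.2 FPKM in WT, and its part in the results was not tested. In bulk RNA fewer cells with a transcript and less of it per cell cannot be told apart.

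The members were mostly higher in KO. Of 32 members that passed the filter 18 rose and 1 fell, and 13 were not called, where 16.2% of all tested genes rose and 10.8% fell. The median log2 fold change of these 32 was 0.57, against 0.074 over all tested genes. Both KO values lay above both WT values in 21 of the 32 (39.3% of tested genes) and below them in 3 (28.7% of tested genes). CA9, PPP1R3C and CXCR4 did not reach the filter, and BHLHE41, RORA and PPFIA4 reached it only through KO, so their difference is partly built in. With libraries scaled to each other (median of ratios) 16 members rose and 1 fell, while over all tested genes 1413 rose and 1828 fell, against 1906 and 1278 without scaling.

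Support for single members was uneven. Each of ARRDC3, PLOD2, KDM3A, GBE1 and PPFIA4 (higher) and JMJD6 (lower) passed in all 4 fits that left out 1 library, though PPFIA4 reached the filter only through KO. The other 13 rises did not pass in at least 1 of these fits. Without KO replicate 2 or without WT replicate 1, 8 members rose, and 10 rose without WT replicate 2. Without the filter on low values no gene passed in limma (lowest adjusted p of a member 0.064), though 17 members that were higher and 1 that was lower had an unadjusted p under 0.05, among 5620 such genes of 20804. The same holds for every call named here: none passed without the filter. Exons of P4HA1, P4HA2, LOX, RORA, YEATS2, VLDLR and FAM13A overlap a gene on the other strand, so without strand their values may hold reads of both, and LOXL2 shares exons with ENTPD4 on the same strand.

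**Figure D1:**
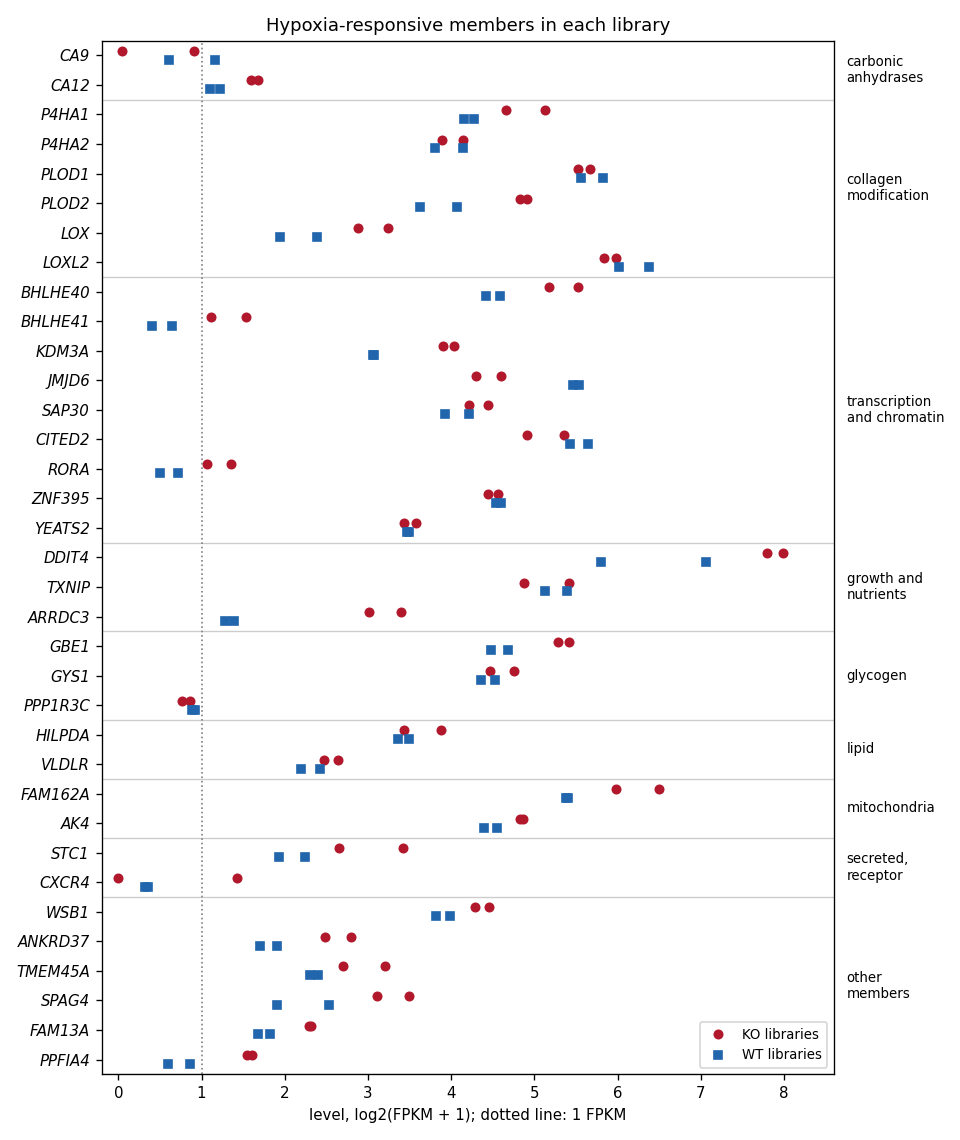
Levels of all 35 members, ordered by role, on a log2(FPKM + 1) axis, with 1 point per library (red circles KO, blue squares WT) and a dotted line at 1 FPKM. ARRDC3, KDM3A and JMJD6 show widely separated groups, while P4HA2, YEATS2 and ZNF395 overlap, and CXCR4 has its highest and its lowest value in the 2 KO libraries.

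Among the genes that restrain growth and nutrient uptake, ARRDC3 showed the largest rise of any member. It encodes an alpha-arrestin that takes receptors off the cell surface and lies on chromosome 5 from 91368724 to 91383359 (minus strand, GRCh38). It had 7.10 and 9.51 FPKM in the KO libraries, against 1.44 and 1.62 FPKM in the WT libraries. The groups were far apart, with a mean of 8.30 ± 1.70 FPKM in KO and 1.53 ± 0.127 FPKM in WT (SD, n = 2 each) and a log2 fold change of 1.87 ± 0.17 (SE, limma adjusted p 0.00114). An exon of the antisense gene ARRDC3-AS1 overlaps it, and reads of the 2 cannot be told apart without strand. DDIT4, the inhibitor of mTORC1 and the most abundant member by the mean of each group, had 252 and 221 FPKM in KO, against 54.8 and 132 FPKM in WT. The KO libraries were close and both higher, but the WT libraries differed from each other by more than 2-fold, and the log2 fold change was 1.46 ± 0.34 (adjusted p 0.0188). Without KO replicate 1 or 2 the adjusted p of DDIT4 was 0.0828 and 0.0708, and its log2 fold change was 0.83 without WT replicate 1 and 2.09 without WT replicate 2. An antisense gene, DDIT4-AS1, also overlaps its exons.

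TXNIP, the alpha-arrestin that binds thioredoxin and limits glucose uptake, was not called. It had 41.8 and 28.3 FPKM in KO, against 34.0 and 41.1 FPKM in WT, and the groups overlapped (log2 fold change -0.12 ± 0.19, adjusted p 0.680). Its sign turned without KO replicate 2 (0.16) and without WT replicate 2 (0.0174). The FPKM ratio of ARRDC3 to TXNIP was 0.170 and 0.337 in KO and 0.0424 and 0.0394 in WT. Of the other arrestins and the glucose-sensing factors MLX, MLXIP and MLXIPL, 5 of 6 were tested and none was called (ARRDC1 nearest, log2 fold change 0.40, adjusted p 0.0507, named after its value was seen). ARRDC1 passed over genes with at least 5 FPKM (0.0435), and MLXIP, likewise named after its value was seen, passed as lower after scaling (-0.48, adjusted p 0.0344, against 0.0680 without scaling).

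Among the collagen-modifying members PLOD2, P4HA1 and LOX rose, and their relatives PLOD1, P4HA2 and LOXL2 were not called. PLOD2, the lysyl hydroxylase that prepares collagen for stable cross-links (chromosome 3 from 146069440 to 146163653, minus strand), had 27.3 and 28.99 FPKM in KO, against 15.8 and 11.3 FPKM in WT. That is 28.1 ± 1.22 and 13.6 ± 3.16 FPKM (SD, n = 2 each), with no overlap and a log2 fold change of 1.02 ± 0.17 (adjusted p 0.00652). PLOD1, its relative, had 49.7 and 45.1 FPKM in KO, against 46.0 and 55.7 FPKM in WT, and overlapped (-0.10 ± 0.14, adjusted p 0.628), with a sign that turned without WT replicate 2 (0.0397). The ratio of PLOD2 to PLOD1 was 0.548 and 0.644 in KO and 0.343 and 0.203 in WT. The RNA levels of both genes were thus closer to each other in KO than in WT. PLOD3, the other lysyl hydroxylase and no member, fell, with 26.1 and 26.2 FPKM in KO, against 39.25 and 38.1 FPKM in WT (-0.55, adjusted p 0.0148), a call lost without KO replicate 2 (0.0532), WT replicate 1 (0.0827) or WT replicate 2 (0.0648).

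P4HA1, a catalytic subunit of collagen prolyl 4-hydroxylase, had 24.2 and 33.8 FPKM in KO, against 18.3 and 16.9 FPKM in WT. It rose by 0.67 ± 0.17 on the log2 scale (adjusted p 0.0264), a call lost without KO replicate 2 (0.125), WT replicate 1 (0.0769) or WT replicate 2 (0.110). Its relative P4HA2 had 13.9 and 16.7 FPKM in KO, against 13.0 and 16.6 FPKM in WT. Those groups overlapped (0.05 ± 0.17, adjusted p 0.857), and the sign turned after scaling (-0.0555), without KO replicate 2 (-0.0779) and without WT replicate 1 (-0.12). The ratio of P4HA1 to P4HA2 was 1.75 and 2.03 in KO and 1.41 and 1.02 in WT.

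LOX, the secreted lysyl oxidase that cross-links collagen and elastin, had 6.38 and 8.46 FPKM in KO, against 4.24 and 2.83 FPKM in WT. Both KO values were higher, and LOX rose by 0.90 ± 0.20 (adjusted p 0.0175), but the call was lost without KO replicate 2 (0.111) or WT replicate 2 (0.0764). LOXL2, a related oxidase and far more abundant, had 62.3 and 56.2 FPKM in KO, against 63.7 and 82.0 FPKM in WT. It was not called (-0.28 ± 0.15, adjusted p 0.183), although the groups did not overlap. LOX stood at 0.102 and 0.151 of the FPKM of LOXL2 in KO and at 0.0666 and 0.0345 in WT. Of their relatives outside the members, LOXL1 was not called (0.37, adjusted p 0.197), and P4HA3, LOXL3 and LOXL4 were below the filter, LOXL4 with 0.50 and 0.44 FPKM in KO, against 0.02 and 0.04 FPKM in WT. No difference between relatives was tested.

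**Figure D2:**
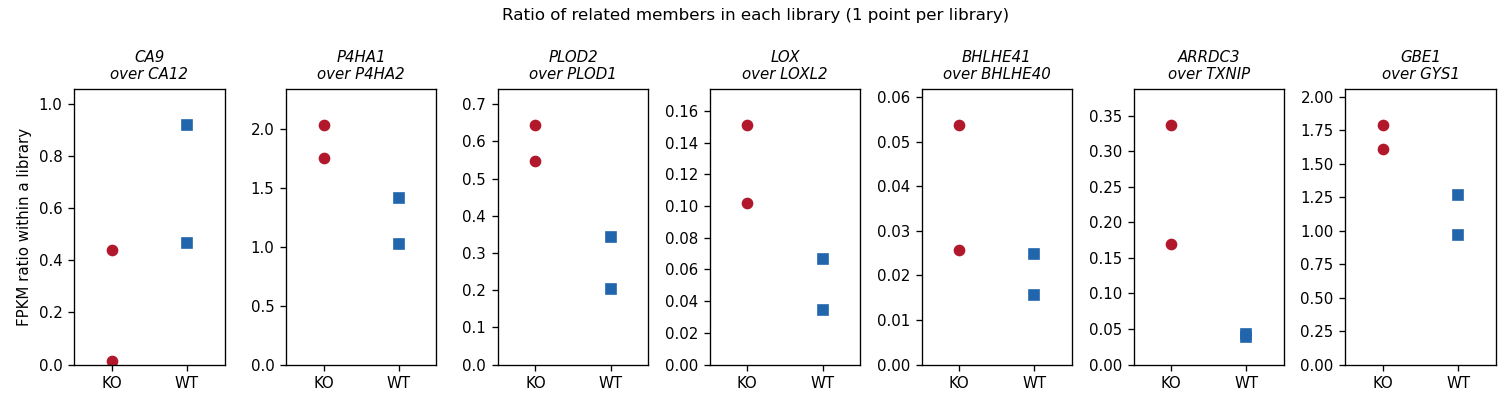
FPKM ratio of 7 related pairs within each library (vertical axes start at 0, 1 point per library, KO left in red, WT right in blue). In 6 pairs the 2 KO ratios lie above the 2 WT ratios, narrowly for BHLHE41 over BHLHE40 (0.0257 against 0.0248) and widely for ARRDC3 over TXNIP. For CA9 over CA12 the KO ratios lie below the WT ratios (0.438 and 0.0137 in KO, 0.465 and 0.918 in WT). The upper gene of each of the 6 pairs was itself called higher, as was CA12, so these directions are partly built in.

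On a short chosen list, collagen genes, whose products these enzymes modify, were mostly lower in KO. Of 11 tested genes for collagens and their folding and cross-linking partners 6 fell and 1 rose, with a median log2 fold change of -0.55. The 6 include PLOD3, and the 11 also hold P4HB and LOXL1, none of which is a collagen. Over all tested genes 10.8% fell and 16.2% rose. COL4A1, a basement membrane collagen, had 11.2 and 9.43 FPKM in KO, against 22.3 and 19.0 FPKM in WT (-0.93 ± 0.15, adjusted p 0.00614). COL1A1 had 0.36 and 0.27 FPKM in KO, against 1.11 and 1.45 FPKM in WT (-0.79, adjusted p 0.00915, and 0.0554 without KO replicate 2), and passed the filter only through WT. COL6A1, of the microfibrillar collagen, rose instead, with 92.7 and 52.0 FPKM in KO, against 25.9 and 39.0 FPKM in WT (1.10 ± 0.28, adjusted p 0.0252), but not without KO replicate 1 (0.0951) or WT replicate 1 (0.120). Without KO replicate 2 the list counted 3 falls and 2 rises, and without WT replicate 1 or 2 it counted 4 falls. P4HB, the shared partner subunit of P4HA1 and P4HA2, had 226 and 191 FPKM in KO, against 201 and 209.9 FPKM in WT (0.02 ± 0.12, adjusted p 0.936).

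Of the 9 transcription and chromatin members 4 rose, 1 fell and 4 were not called, where 16.2% of all tested genes rose and 10.8% fell. BHLHE41 and RORA, among those that rose, reached the filter only through KO. KDM3A, a histone H3 lysine demethylase that needs oxygen (chromosome 2 from 86440647 to 86492716, plus strand), had 15.3 and 13.9 FPKM in KO, against 7.43 and 7.31 FPKM in WT. The replicates were close in both groups, and it rose by 0.90 ± 0.14 (adjusted p 0.00525). JMJD6, a dioxygenase that hydroxylates lysines of splicing factors (chromosome 17 from 76712832 to 76726799, minus strand), went the other way, with 18.7 and 23.2 FPKM in KO, against 43.1 and 45.6 FPKM in WT. It was the only member called lower (-1.05 ± 0.14, adjusted p 0.00341) and stood at 0.472 of its WT mean. Both proteins carry a JmjC domain, and their genes moved in opposite directions with no overlap between groups in either.

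BHLHE40 and BHLHE41, paired repressors that link hypoxia with the circadian clock, both rose. BHLHE40 had 35.2 and 45.1 FPKM in KO, against 20.5 and 23.0 FPKM in WT (0.85 ± 0.15, adjusted p 0.00861, and 0.0522 without WT replicate 1). BHLHE41 was scarce, with 1.89 and 1.16 FPKM in KO, against 0.32 and 0.57 FPKM in WT (0.80 ± 0.18, adjusted p 0.0184). Its call was lost without KO replicate 1 (0.0844) or WT replicate 1 (0.0830), and an exon of SSPN overlaps it on the other strand. RORA, a nuclear receptor of the clock, was also scarce, with 1.10 and 1.55 FPKM in KO, against 0.65 and 0.42 FPKM in WT. It rose by 0.60 ± 0.16 (adjusted p 0.0317), and not without KO replicate 2 (0.161), WT replicate 1 (0.0547) or WT replicate 2 (0.131).

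The remaining transcriptional members were not called. CITED2, which competes with HIF for its coactivators, had 39.8 and 29.1 FPKM in KO, against 41.9 and 49.2 FPKM in WT. Both KO values were lower (-0.41 ± 0.17, adjusted p 0.113), and without KO replicate 1 the fall passed (-0.63, adjusted p 0.0450). SAP30, a subunit of a histone deacetylase complex, had 20.7 and 17.6 FPKM in KO, against 14.2 and 17.6 FPKM in WT (0.25 ± 0.16, adjusted p 0.260). ZNF395, a zinc finger factor, and YEATS2, a reader subunit of a histone acetyltransferase complex, overlapped between the groups, with fold changes of -0.07 ± 0.13 and 0.03 ± 0.14 (adjusted p 0.705 and 0.895). The sign of YEATS2 turned after scaling (-0.0704) and without KO replicate 2 (-0.0439), and exons of FBXO16 overlap ZNF395 on the same strand.

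**Figure D3:**
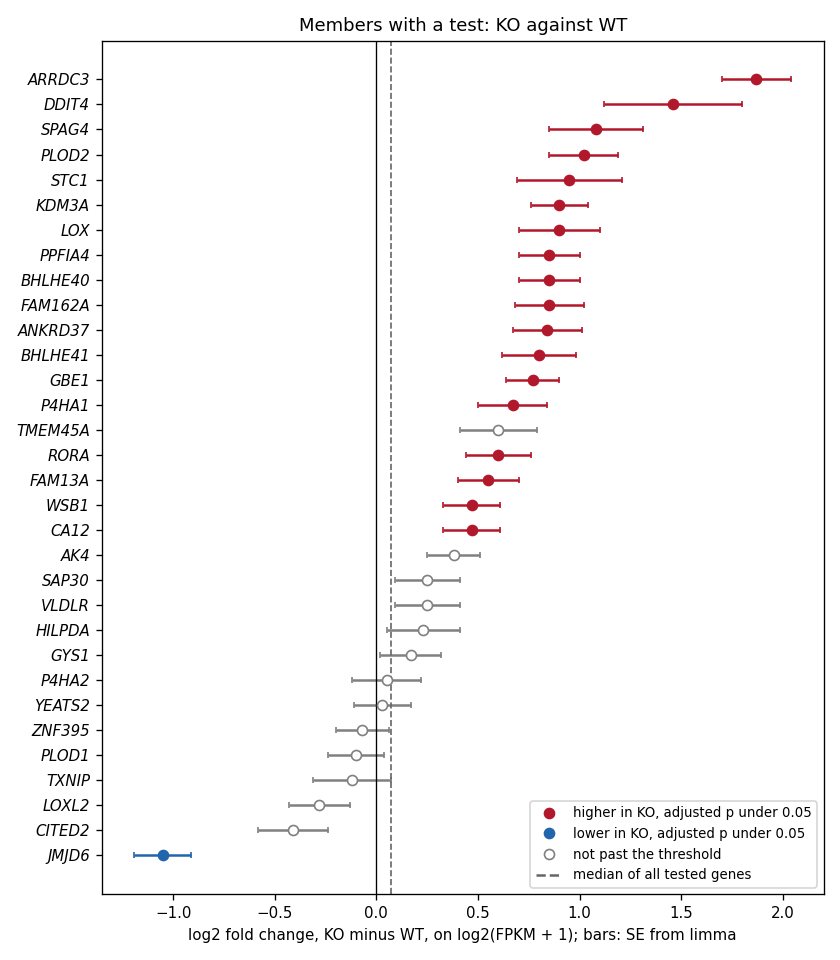
Log2 fold change (KO minus WT, on log2(FPKM + 1)) of the 32 tested members, ordered by size, with the SE from limma as bars and the median of all tested genes (0.074) as a dashed line. Filled points passed the threshold, 18 higher and 1 lower, and DDIT4 has the widest bar (0.34).

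Of the glycogen genes only the branching enzyme was called. GBE1 (chromosome 3 from 81489699 to 81762161, minus strand) had 37.8 and 41.8 FPKM in KO, against 24.8 and 21.3 FPKM in WT. It averaged 39.8 ± 2.84 and 23.0 ± 2.43 FPKM (SD, n = 2 each), with no overlap and a rise of 0.77 ± 0.13 (adjusted p 0.00767). GYS1, the glycogen synthase of muscle and most other tissues, had 21.2 and 25.9 FPKM in KO, against 19.4 and 22.0 FPKM in WT, and overlapped (0.17 ± 0.15, adjusted p 0.410). The ratio of GBE1 to GYS1 was 1.79 and 1.61 in KO and 1.27 and 0.970 in WT. PPP1R3C, which brings a phosphatase to glycogen, was below the filter at 0.81 and 0.70 FPKM in KO and 0.84 and 0.89 FPKM in WT.

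FAM162A, a mitochondrial protein induced by hypoxia, rose, and AK4, the adenylate kinase of the mitochondrial matrix, was not called. FAM162A had 62.4 and 89.0 FPKM in KO, against 40.5 and 41.2 FPKM in WT. Both KO values were higher but lay far apart (0.85 ± 0.17, adjusted p 0.0117, and 0.0566 without WT replicate 1). AK4 had 27.5 and 28.2 FPKM in KO, against 22.5 and 20.0 FPKM in WT (0.38 ± 0.13, adjusted p 0.0650), with no overlap. It has 6 annotated pseudogenes (AK4P1 to AK4P6) that may share reads, so its level is uncertain.

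The lipid members were not called. HILPDA, a lipid droplet protein that inhibits fat breakdown, had 9.76 and 13.8 FPKM in KO, against 9.23 and 10.3 FPKM in WT, and the groups overlapped (0.23 ± 0.18, adjusted p 0.369). VLDLR, a receptor for triglyceride-rich lipoproteins, had 4.55 and 5.25 FPKM in KO, against 3.58 and 4.35 FPKM in WT (0.25 ± 0.16, adjusted p 0.270). Neither p shows that the groups were alike.

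The carbonic anhydrases were low in all libraries. CA9, the membrane enzyme used as a textbook marker of HIF activity, had 0.88 and 0.03 FPKM in KO, against 0.53 and 1.23 FPKM in WT. Its groups overlapped, its lowest value was in KO replicate 2, and only 1 of the 4 values reached 1 FPKM, so it was not tested. An exon of ARHGEF39 overlaps it on the other strand. CA12, the related enzyme, had 2.01 and 2.19 FPKM in KO, against 1.14 and 1.34 FPKM in WT. It rose by 0.47 ± 0.14 (adjusted p 0.0469), but not after scaling (0.0738), with a pseudocount of 0.1 (0.0555), or without KO replicate 1 (0.111), KO replicate 2 (0.188), WT replicate 1 (0.161) or WT replicate 2 (0.0852).

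Of the secreted and receptor members STC1, a secreted glycoprotein of calcium and phosphate balance, had 5.27 and 9.67 FPKM in KO, against 2.80 and 3.75 FPKM in WT. It rose by 0.95 ± 0.26 (adjusted p 0.0311), and the call was lost without KO replicate 2 (0.153), WT replicate 1 (0.128) or WT replicate 2 (0.0522). CXCR4, the receptor of the chemokine CXCL12 in breast cancer spread, had 1.69 FPKM in KO replicate 1 and was listed at 0 in KO replicate 2, against 0.25 and 0.28 FPKM in WT. The KO libraries thus held both its highest and its lowest value, and it was not tested.

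Of the other 6 members 5 rose, and all 6 had both KO values above both WT values. Over all tested genes 16.2% rose, and 39.3% had both KO values above both WT values. PPFIA4 reached the filter only through KO. SPAG4, a SUN-domain protein, had 7.63 and 10.2 FPKM in KO, against 2.74 and 4.77 FPKM in WT (1.08 ± 0.23, adjusted p 0.0149, lost without KO replicate 2 at 0.0947 and without WT replicate 1 at 0.0624). PPFIA4, a liprin scaffold, had 1.92 and 2.04 FPKM in KO, against 0.51 and 0.82 FPKM in WT (0.85 ± 0.15, adjusted p 0.00861). ANKRD37, a small ankyrin repeat protein, had 4.58 and 5.97 FPKM in KO, against 2.74 and 2.25 FPKM in WT (0.84 ± 0.17, adjusted p 0.0127, lost without KO replicate 2 at 0.0840 and without WT replicate 2 at 0.0553), and exons of UFSP2 overlap it on the other strand. These groups were separate in each gene, at low levels for PPFIA4.

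FAM13A had 3.90 and 3.96 FPKM in KO, against 2.19 and 2.54 FPKM in WT (0.55 ± 0.15, adjusted p 0.0296). WSB1, a substrate adaptor of a ubiquitin ligase, had 18.5 and 20.9 FPKM in KO, against 13.1 and 14.9 FPKM in WT (0.47 ± 0.14, adjusted p 0.0456). Neither call survived the loss of any 1 library, with adjusted p of 0.102 and 0.129 for FAM13A without KO replicate 1 and 2, and 0.118 and 0.0574 without WT replicate 1 and 2. For WSB1 they were 0.0777 and 0.199, and 0.198 and 0.0839, in the same order, and 0.0896 after scaling. TMEM45A, a membrane protein, had 5.51 and 8.18 FPKM in KO, against 3.92 and 4.29 FPKM in WT, and was just outside the threshold (0.60 ± 0.19, adjusted p 0.0532), passing without KO replicate 1 (0.0390) and over genes with at least 5 FPKM (0.0499).

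The 2 KO libraries did not carry the rises equally. Of the 18 members that rose 15 were higher in KO replicate 2 than in KO replicate 1 (83.3%), with a median log2 difference of 0.22 between these 2 libraries, against 52.2% and 0.01 over all tested genes. Between the WT libraries 11 of these 18 were higher in WT replicate 2 (61.1%, median 0.12), against 55.2% and 0.03 over all tested genes. Over all 32 tested members the counts were 23 for the KO libraries (71.9%, median 0.16) and 24 for the WT libraries (75%, median 0.14). STC1 and FAM162A were much higher in KO replicate 2, and BHLHE41 in KO replicate 1. What separates the 2 libraries within a group is not given in the labels, and its part in the results was not tested.

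**Figure D4:**
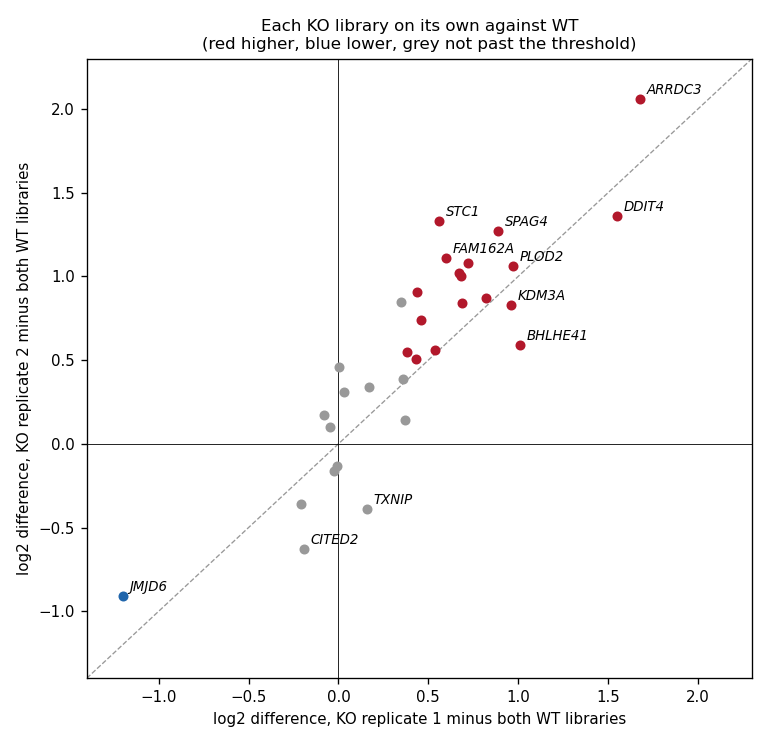
Log2 difference from both WT libraries of KO replicate 1 (horizontal) and of KO replicate 2 (vertical) for the 32 tested members, on log2(FPKM + 1), with the line of equality dashed. Members called higher (red) all lie above 0 for both KO libraries, and most lie above the line, STC1 at 0.56 and 1.33, while JMJD6 (blue) lies below 0 for both, at -1.20 and -0.91.

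The members were set beside other genes of the oxygen response, in lists to be read beside all tested genes, of which 16.2% rose and 10.8% fell. Of 9 tested genes for HIF subunits and oxygen sensors 4 rose and 0 fell (median log2 fold change 0.44), against 3 rises without KO replicate 2, 1 without either WT library and 0 without KO replicate 1. With libraries scaled to each other 4 of the 9 rose and 1 fell (median 0.34). EGLN3, an inducible prolyl hydroxylase, averaged 4.87 ± 0.318 FPKM in KO and 2.39 ± 0.552 FPKM in WT (SD, n = 2 each). It rose by 0.80 (adjusted p 0.0138 in limma). ARNT2, a partner subunit, rose by 0.69 (adjusted p 0.0197) and HIF1A by 0.62 (adjusted p 0.0254), with 76.0 and 64.0 FPKM of HIF1A in KO, against 51.3 and 39.6 FPKM in WT. HBP1, the repressor named in the series title, had 8.35 and 9.71 FPKM in KO, against 2.97 and 4.66 FPKM in WT (1.08 ± 0.20, adjusted p 0.00900, and 0.0616 without KO replicate 2). The calls were lost for EGLN3 without KO replicate 1 (0.0511), KO replicate 2 (0.0824) or WT replicate 1 (0.0658). They were lost for ARNT2 without KO replicate 1 (0.108), WT replicate 1 (0.0624) or WT replicate 2 (0.0734), and for HIF1A without KO replicate 1 (0.106) or WT replicate 2 (0.145).

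Of 21 glycolytic HIF targets 9 rose and 1 fell (median 0.19), and 4 rose and 0 fell without WT replicate 1, 5 rose without WT replicate 2 and 6 rose without KO replicate 2. ALDOC and PFKFB4 rose by 1.84 and 1.29, and HK2 fell by 0.82 on the log2 scale (adjusted p 0.0531 without WT replicate 1). Of 29 tested other hypoxia-induced genes 10 rose and 2 fell (median 0.16), and 5 rose without KO replicate 2. CAV1, of membrane caveolae and also among the markers of this line, rose by 1.35 and BNIP3L, a mitophagy receptor, by 1.42. ADM, which encodes the vasodilator adrenomedullin, fell by 1.69 with 16.1 and 15.7 FPKM in KO, against 57.8 and 49.4 FPKM in WT. VEGFA, a common HIF target, had 28.0 and 20.3 FPKM in KO, against 21.7 and 27.4 FPKM in WT, with complete overlap (-0.03 ± 0.19, adjusted p 0.916). Genes known as HIF targets were thus found higher, lower and not called in the same libraries, and no difference between the lists was tested.

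**Figure D5:**
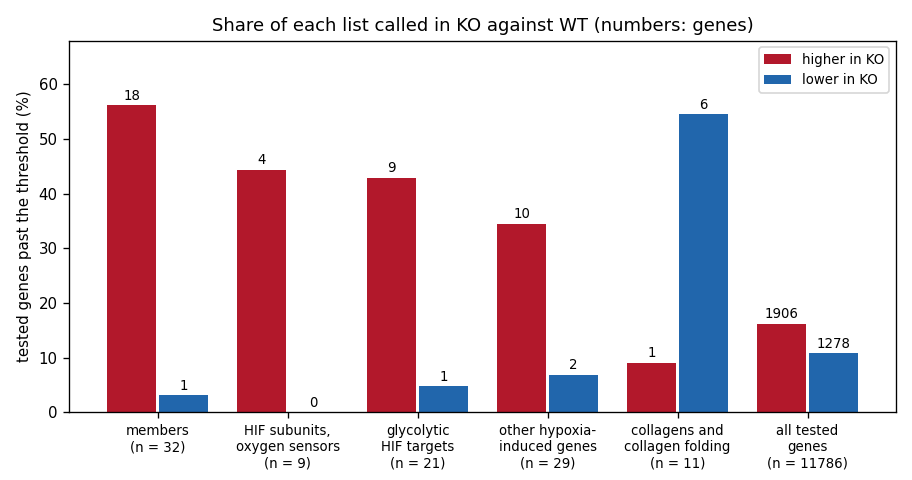
Share of tested genes called higher (red) and lower (blue) in KO, in percent, for the members and 4 other lists beside all tested genes, with the number of genes above each bar. The members reach 56.2% higher and 3.12% lower, against 16.2% and 10.8% of all tested genes, and the collagen list 9.09% higher and 54.5% lower.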

How the data were processed

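Total RNA was extracted with Trizol and sequenced from Illumina TruSeq RNA libraries, per the labels' protocols. The authors deposited FPKM values, 1 for each gene in each library, per the file headers. HISAT, StringTie, Cufflinks and GATK and the build hg38 are named in the submitters' processing notes, without roles or versions, and no filter, strand setting or read depth is given in the sources used here. From these values the present work computed log2(FPKM + 1), kept genes that reached 1 FPKM in 2 or more libraries and fitted limma 3.58.1 (R 4.3.3, mean-variance trend, no block or scaling) to 11786 genes, with Benjamini-Hochberg adjustment. The pseudocount of 1 understates changes of low genes. Every adjusted p printed comes from this limma fit or its alternatives. Symbols that a spreadsheet had turned into dates (11) were restored from gene identifiers.

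The members and lists were chosen with earlier results of these data known, so counts over them are descriptions. All members are named. From each other list the rule took the 2 rising and 2 falling genes with the smallest p among those called, plus HIF1A, VEGFA and HBP1, and 1 gene it names is not reported here. P4HB, PLOD3, LOXL1, P4HA3, LOXL3, LOXL4, ARRDC1, MLXIP, EPCAM, KRT19 and CLDN4 lie outside this rule and were added after their values were seen. Positions are from GENCODE 29 and promoters and the microRNA from RefSeq (GRCh38.p14). Seed matches were sought in the longest 3′ UTR per gene. Alternatives were a median-of-ratios scaling, a pseudocount of 0.1, no filter, a filter of 5 FPKM, no trend, each library left out and a replicate block.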

Additional observations from a re-analysis of the deposited data

How the results depend on the processing

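The number of genes changed was 3184, 1402 to 1902 when 1 library was left out, and 0 without the filter on low values. Members higher in KO numbered 18, 8 to 14 when 1 library was left out, and 0 without the filter. Members lower in KO numbered 1, 1 to 2 when 1 library was left out (JMJD6, joined by CITED2 without KO replicate 1), and 0 without the filter. In limma without the filter 5620 of 20804 genes had an unadjusted p under 0.05, 17 of them members that were higher and 1 a member that was lower, and the cause of the lost calls was not tested. With 1 library left out, the lone library of a group is assumed to vary like the others, and fewer samples enter the fit. Scaling, the pseudocount of 0.1, the 5 FPKM filter and the fit without trend gave 16, 17, 13 and 18 higher members and 1 lower in each, and the 5 FPKM filter left fewer genes tested.

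The sign turned for members that were not called: P4HA2 after scaling (-0.0555), without KO replicate 2 (-0.0779) and without WT replicate 1 (-0.12), YEATS2 after scaling (-0.0704) and without KO replicate 2 (-0.0439), PLOD1 without WT replicate 2 (0.0397), and TXNIP without KO replicate 2 (0.16) and without WT replicate 2 (0.0174). With 1 library left out the log2 fold change ranged from -0.12 to 0.21 for P4HA2, from -0.23 to 0.0397 for PLOD1, from -0.39 to 0.16 for TXNIP and from -0.0439 to 0.10 for YEATS2. With the replicate number as a block 2864 genes changed, 16 members were higher and 1 was lower, without FAM13A (adjusted p 0.0512), WSB1 (0.0711) and CA12 (0.0713) and with TMEM45A (0.0465). The labels do not say that the numbers pair the samples, and deviations of same-numbered libraries correlated at -0.177 over 11786 genes. With the numbers crossed, an alternative added after seeing the data, 4170 genes changed, 20 members were higher and 2 lower. Depth is unknown, so the precision of the members near 1 FPKM (CA9, CXCR4, PPP1R3C, RORA, BHLHE41, PPFIA4) cannot be stated.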
